A study of Mus musculus with 15 samples.

Results

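Ribosomal proteins are the protein part of the cytosolic ribosome, and the genes that encode them were examined here as a group in normal mouse lung cells and in early K-Ras lesions. Members were all genes whose symbol in the platform annotation is that of a numbered Rps or Rpl protein, an acidic stalk protein (Rplp) or Rpsa, measured by a probe set with exactly 1 symbol. The rule found 46 genes of 18193 measured, 22 of the small subunit and 24 of the large subunit, and it used no measured difference between groups. Where a gene had several such probe sets, the one with the highest mean over the 15 arrays stood for it.

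All 15 samples came from frozen lung sections of mice with a K-RasG12V knock-in allele, taken 3 months after in vivo delivery of Cre recombinase by an adenovirus, and were cut out by laser capture microdissection. The 8 normal samples were lung cells from the same sections as the lesions, so they too come from Cre-infected knock-in animals. The 7 hyperplastic lesions, each of about 500 cells, carried the source-name labels H1 (3 samples, replicates 2, 3 and 4) or H2 (4 samples, replicates 1, 5, 6 and 7). The sources used here do not give the basis of the H1 and H2 labels, the number and ages of the mice, or which samples shared a mouse. Captured regions of 1 animal are not independent, so each p-value below reflects only the scatter among these captured regions and may be too small. Lesion and normal samples that shared a section or mouse would be paired. The main fits do not model such pairs, and a p-value could then also be too large. Values are log2 signals, and a difference of 1 on this scale is a 2-fold difference.

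Ribosomal proteins and ribosomal RNA are made in balanced amounts, and their genes are among the most highly transcribed in growing cells. The messenger RNAs of these proteins and of several translation factors begin with a C followed by a run of pyrimidines, the TOP motif, through which mTORC1 signalling and the RNA-binding protein Larp1 control their translation. Some of the proteins also act away from the ribosome, as Rpl11 does when it binds Mdm2 and stabilises p53. Because mouse ribosomal protein genes have many processed pseudogenes, probe sets for them can pick up near-identical copies, and the signals below carry that uncertainty.

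The sequences around the annotated start of 8 members were searched for runs of pyrimidines. Of these, 6 were chosen because their genes passed the test in H2 lesions (Rps2, Rpl10a, Rps27l) or were the brightest members (Rpl13a, Rps9, Rps28). Rps27 was added as the paralog partner of Rps27l, and Rpl35 as an example of a long run. Each window holds 15 bases before and 15 bases from the annotated start, in GRCm38.p6 from RefSeq, 5′ to 3′ along the gene's own strand. Capitals mark the longest unbroken run of C and T, and base 16 of each window is the first base of the annotated transcript. On the plus strand the windows lie at chr17:24720048-24720077 (Rps2), chr17:28328456-28328485 (Rpl10a), chr9:66946071-66946100 (Rps27l) and chr7:3704026-3704055 (Rps9). On the minus strand they lie at chr7:45128731-45128760 (Rpl13a), chr17:33824548-33824577 (Rps28), chr3:90213634-90213663 (Rps27) and chr2:39005117-39005146 (Rpl35).
Rps2: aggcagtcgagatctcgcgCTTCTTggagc
Rpl10a: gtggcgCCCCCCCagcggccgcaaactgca
Rps27l: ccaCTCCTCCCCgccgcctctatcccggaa
Rpl13a: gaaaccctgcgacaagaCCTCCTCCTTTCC
Rps9: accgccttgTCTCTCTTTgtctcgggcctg
Rps28: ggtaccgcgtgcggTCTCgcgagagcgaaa
Rps27: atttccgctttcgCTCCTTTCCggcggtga
Rpl35: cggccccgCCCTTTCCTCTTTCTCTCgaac

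The run was 6 bases long in Rps2, 7 in Rpl10a, 9 in each of Rps27l, Rps9 and Rps27, 13 in Rpl13a, 4 in Rps28 and 18 in Rpl35. It covered the first transcript base in Rps9, Rps28, Rps27 and Rpl35. It ended before that base in Rpl10a and Rps27l and began after it in Rps2 and Rpl13a, so in those 4 windows the longest run missed the annotated start. Shorter runs were not counted, and in Rps2 the letters tctc cover that base. RefSeq promoter entries matched 40 of the 46 members, and 17 of these 40 windows (42.5%) held a run of at least 8 pyrimidines. The same held for 9 of 69 mitochondrial ribosomal protein genes (13.0%) and for 11.9% of 27025 genes in the table. A run of that length covered the first transcript base in 12 of 40 members (30%), in 1 of 69 mitochondrial genes and in 3.70% of all genes. In the 300 bases from 250 before to 50 after the start, CCGGAAG, the core bound by ETS factors, stood on either strand in 50% of members, in 36.2% of mitochondrial ribosomal protein genes and in 9.12% of all genes. TATAAA stood in 10% of members and in 14.2% of all genes. The E-box CACGTG, which Myc and Max can bind, stood in 7.5% of members and 7.24% of all genes. These matches describe letters in a window and are not binding sites.

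The members were mostly bright. Their mean signal over the 15 arrays had a median of 7.44, against 4.38 for all genes, and 30 of 46 (65.2%) lay above 6, as did 13.0% of all genes. The brightest were Rpl13a, a large-subunit protein that can leave the ribosome and silence inflammatory messages after interferon-gamma, Rps9, which lines the messenger RNA entry channel, and Rps28, near the exit of that channel. The dimmest were Rpl37, with a mean of 2.09, Rps16, and Rps4l, which RefSeq lists as a transcribed pseudogene. A probe set's signal also depends on its probes, so a dim member is one whose 1-symbol probe set was dim. Another 110 probe sets listed a ribosomal protein together with other symbols, often of pseudogenes, and were not members.

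Member signals moved together from array to array. In normal cells the median over the 46 members was 7.69, 4.55, 8.59, 6.90, 6.78, 7.57, 6.21 and 5.89 in replicates 1 to 8. It was 7.00, 7.54 and 7.75 in H1 replicates 2, 3 and 4, and 8.24, 8.08, 8.56 and 9.26 in H2 replicates 1, 5, 6 and 7. Normal replicate 2 lay far below every other array and normal replicate 3 lay among the H2 arrays, so the normal range covered H1 whole and overlapped H2. The mean of these medians was 6.77 ± 1.24 (SD, n = 8) for normal cells, 7.43 ± 0.39 for the 3 H1 lesions and 8.53 ± 0.52 for the 4 H2 lesions. Without normal replicate 2 the normal mean was 7.09 ± 0.93. The median over all genes lay between 4.26 and 4.46 on every array.

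**Figure D1:**
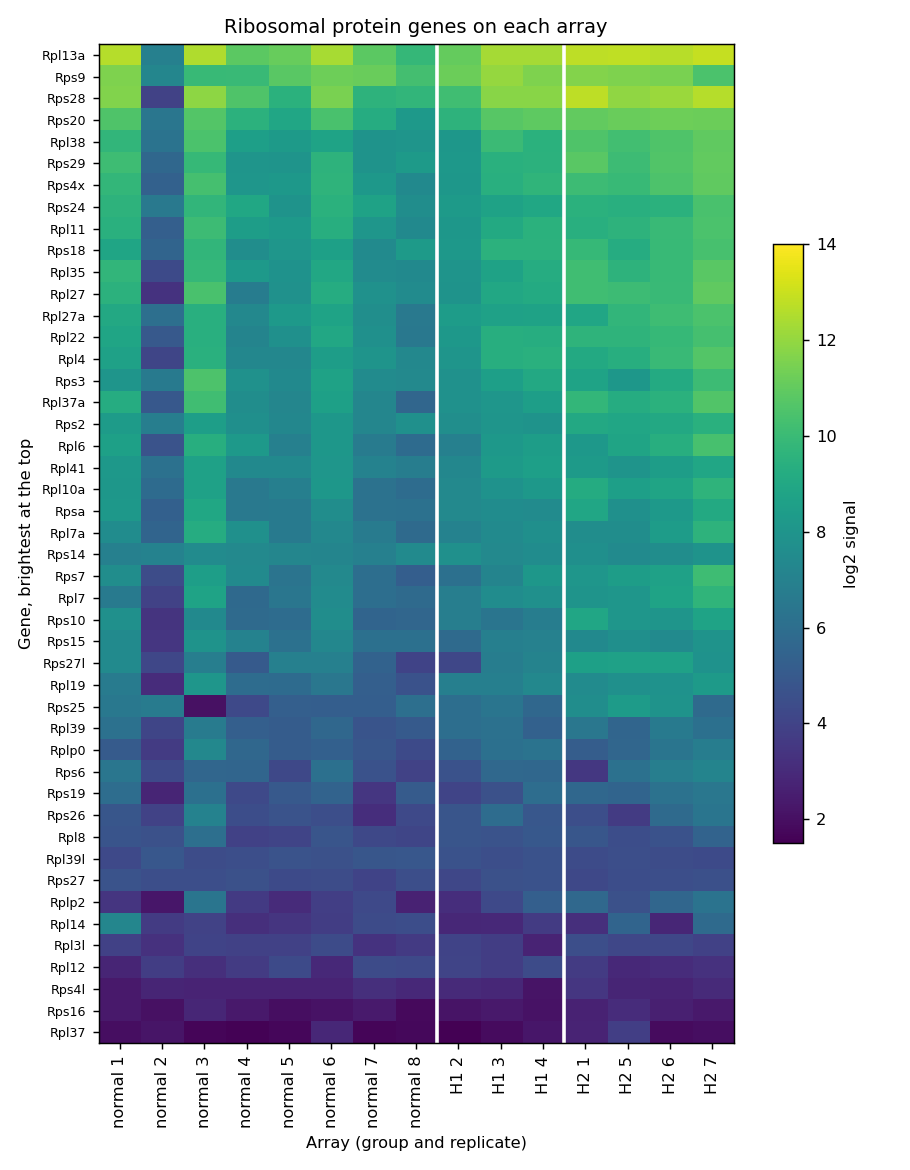
Heat map of the log2 signal (colour scale) of the 46 ribosomal protein genes, 1 row a gene with the brightest at the top, on the 15 arrays in columns, with white lines between normal, H1 and H2. The column of normal replicate 2 is the darkest, with a member median of 4.55, and that of H2 replicate 7 the lightest, with 9.26.

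The movement was shared across members of both subunits. For the small subunit the median was 6.83 ± 1.06 in normal cells, then 7.30 ± 0.24 in H1 lesions and 8.57 ± 0.30 in H2 lesions. The large-subunit median was 6.81 ± 1.32, 7.57 ± 0.51 and 8.57 ± 0.74 in the same order. Normal replicate 2 was the lowest of all 15 arrays for 32 members (69.6%) but for 13.9% of all genes, and H2 replicate 7 was the highest for 26 members (56.5%) but for 11.9% of all genes. Most genes are dimmer than the members, and this share was not taken over genes of like signal. The list of translation factors with TOP messages, described below, also had its lowest median in normal replicate 2, at 5.48, and its highest in H2 replicate 7, at 9.51. Across arrays the members had a median SD of 1.21, against 0.465 for all genes. Taken relative to each array's own member median, that SD was 0.599, and it was smaller than before in 29 of the 30 members above 6 and in 6 of the 16 others.

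The arrays also differed in how widely their values were spread, measured as the SD of log2 signals over all genes of an array. This spread was 1.38 ± 0.18 for normal arrays, 1.42 ± 0.10 for H1 arrays and 1.64 ± 0.12 for H2 arrays. It was 1.14 in normal replicate 2 and 1.20 in normal replicate 8, the narrowest arrays, 1.67 in normal replicate 3 and 1.78 in H2 replicate 7. The arrays with the lowest and the highest member medians were thus those with the narrowest and the widest values, and mean spread was higher in H2 than in normal cells and little different in H1. The median difference between H2 and normal cells over all 2366 genes above 6 was 0.84.

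**Figure D2:**
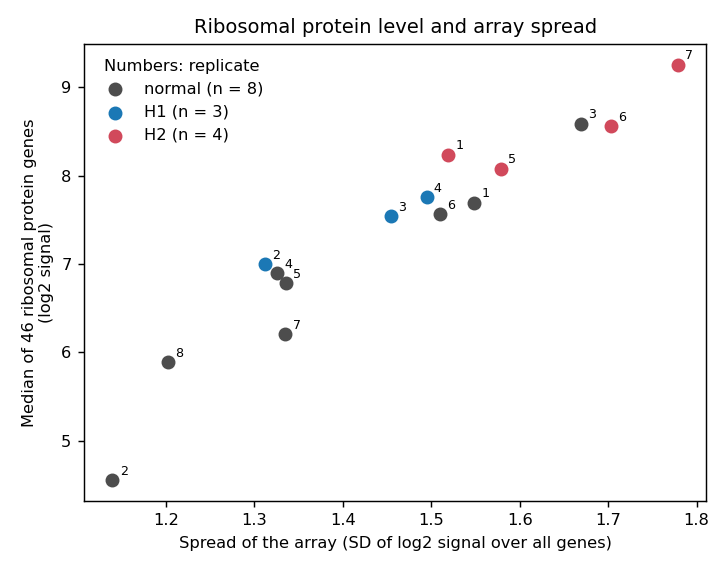
Median log2 signal of the 46 members on each array (vertical axis) against the SD of the log2 signals of all genes on that array (horizontal axis), coloured by group, with the replicate number beside each point. Normal replicate 2 is lowest on both axes and H2 replicate 7 is highest on both.

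A few members did not follow the others. Rps14, a small-subunit protein whose loss of 1 copy causes the anaemia of 5q- syndrome in people, had normal values from 6.93 to 7.52 with a median of 7.21, H1 values of 7.78, 7.36 and 7.58, and H2 values of 7.73, 7.50, 7.62 and 7.93. Its SD over the 15 arrays was 0.30, and normal replicate 2 was not its lowest array. Rps25, which several viral and cellular internal ribosome entry sites need, ran from 2.07 to 6.69 in normal cells with a median of 5.27, and its lowest array was normal replicate 3, the array where most members were high. Its H1 values were 6.03, 6.36 and 5.67, and its H2 values were 7.65, 8.36, 7.94 and 5.80. Rps9 had its highest group mean in H1, with 11.21, 12.02 and 11.57, and stood at 11.70, 11.59, 11.49 and 10.45 in H2, so that H2 replicate 7 was its lowest H2 array. Its normal values ran from 7.25 to 11.56 with a median of 10.53.

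The first comparison asked how lesions as a whole differ from normal cells. Of the 46 members, 42 had a higher mean in lesions and 4 a lower one, with a median difference of 1.16 against −0.06 over all genes. None passed limma's test at an adjusted p under 0.05 (Benjamini-Hochberg over all 18193 genes), where 0.280% of all genes passed higher and 0.0110% lower. Before adjustment, 27 members were higher with p under 0.05 and 0 were lower, against 8.10% and 4.66% of all genes. Of these 27, 24 were among the 30 members above 6. Of the 2366 genes above 6, 702 were higher with limma p under 0.05. The median difference was 1.48 for members above 6, against 0.55 for all genes above 6. No member had lesion and normal values that did not overlap, against 0.187% of all genes in the higher and 0.0385% in the lower direction. Without normal replicate 3, 1 member was called, Rpl19, at 2.10 (limma adjusted p 0.0452), where 0.715% of all genes were called higher.

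Rpl19, a large-subunit protein that takes part in a bridge between the subunits, had the lowest p of the members in lesions. It ran from 3.11 to 8.09 in normal cells with a median of 5.89. It was 6.89, 6.89 and 7.32 in H1 and 7.54, 7.80, 7.87 and 8.30 in H2. H2 replicate 7 lay above all normal arrays, and the other lesions lay above all normal arrays but replicate 3. The difference was 1.76 ± 0.53 (SE) with an adjusted p of 0.178 in limma. Rpl22, which is not needed for translation itself and binds RNA, differed by 1.78 ± 0.54 (limma adjusted p 0.181), and Rpl10a and Rpl7 differed by 1.47 and 1.73. The 4 members with lower lesion means were Rpl14, at −0.41, Rpl39l, at −0.16, Rpl12, at −0.07, and Rps27, whose difference was 0.00 to 2 decimals. For Rpl12 and Rps27 the sign depended on the setting, and median centring and quantile normalization gave 0.04 and 0.05 for Rps27.

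H1 lesions lay within the normal range of member medians. Of the members, 40 had a higher mean in H1 than in normal cells and 6 a lower one, with a median difference of 0.54 against −0.05 over all genes. For members above 6 it was 0.63, against 0.23 for all genes above 6. In limma's test 0 members passed after adjustment and 0 reached an unadjusted p under 0.05. Over all genes, 0.0110% passed higher and 0.00% lower, and 1.85% and 2.39% had an unadjusted p under 0.05. No member's H1 and normal values lay apart, against 0.500% of genes higher and 0.896% lower. Without the 2 narrowest normal arrays the median difference was 0.13, with array spread as a covariate it was 0.35, and without normal replicate 2 it was 0.27. With 3 H1 samples, differences of this size were within the spread of the normal arrays.

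The member with the lowest p in H1 was Rps9, at 1.33 ± 0.66 above normal cells. Its dimmer probe sets gave 0.40 and 0.05, and alternatives put the difference between 0.05 and 2.56, the latter with the replicate block. It was followed by Rps14 at 0.36, Rpl19 at 1.28 and Rpl22 at 1.25. The limma adjusted p was 0.997 for each of these. Among the 6 with lower means, Rpl14 stood at −1.09, but its normal mean holds replicate 1 at 7.23 while the other normal arrays lay between 3.17 and 4.45. Rpl3l, the muscle paralog of Rpl3, stood at −0.27, Rps4l at −0.08 and Rpl39l at −0.05.

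H2 lesions had the highest ribosomal protein signals of the groups. Of the 46 members, 43 had a higher mean in H2 than in normal cells and 3 a lower one, with a median difference of 1.55 against −0.04 over all genes. In limma's test 3 members rose (Rps2, Rpl10a and Rps27l) and 0 fell, where 2.89% of all genes rose and 0.495% fell. All 3 were among the 30 members above 6, a share of 10%, near the 9.30% of all genes above 6 that rose. H2 and normal values did not overlap for 7 members, Rpl13a, Rpl22, Rps10, Rps2, Rps20, Rps27l and Rps28, all higher in H2, against 2.70% of all genes higher and 1.08% lower. These 7 were also among the 30 members above 6, and 253 of the 2366 genes above 6 lay apart in that direction. An unadjusted p under 0.05 was reached by 31 members in the higher direction, against 12.7% of all genes higher and 8.70% lower. The median difference was 1.29 for the small subunit and 1.86 for the large subunit. It was 1.96 for members above 6, against 0.84 for all genes above 6, and 0.45 for the 16 dimmer members.

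**Figure D3:**
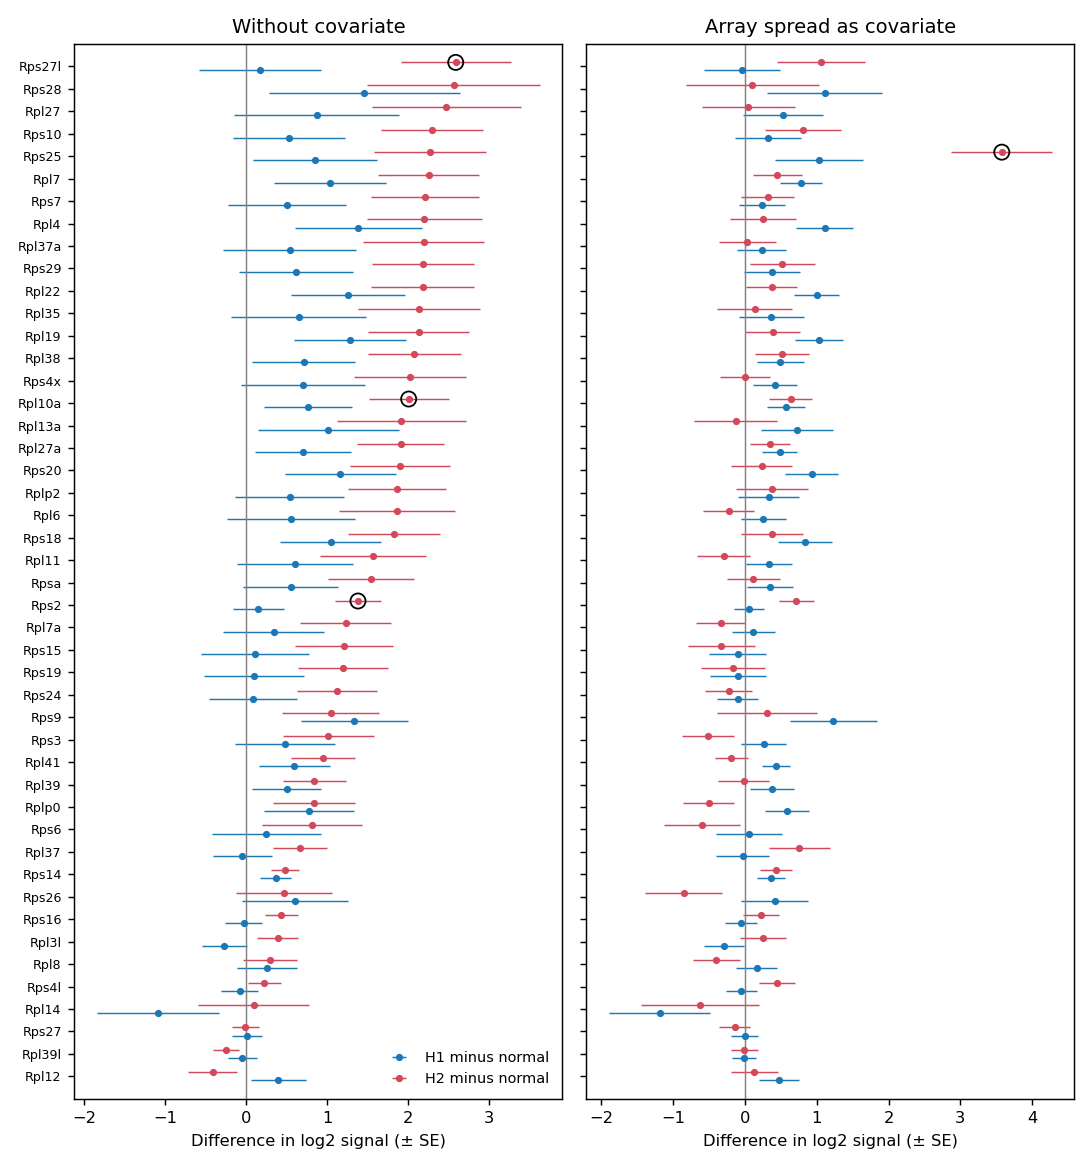
Difference in log2 signal from normal cells (horizontal axis, bars are the SE) for each of the 46 members in H1 (blue) and H2 (red), without a covariate on the left and with array spread as a covariate on the right; black rings mark members called by limma. On the left the H2 points have a median of 1.55 and 3 rings, and on the right a median of 0.13 and 1 ring.

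Rps2, which sits at the messenger RNA entry site and contributes to decoding accuracy, was the member with the lowest p. Its normal values ran from 6.84 to 8.52 with a median of 7.76. Its H1 values were 7.69, 8.00 and 7.94, and its H2 values were 9.06, 8.89, 9.07 and 9.41. All 4 H2 arrays lay above all 8 normal and all 3 H1 arrays. The difference from normal cells was 1.38 ± 0.28 (SE), or 2.60-fold, with a limma adjusted p of 0.0178, and it passed in 13 of 15 fits that each left out 1 array, the exceptions being H2 replicates 6 and 7. The difference was 0.35 with quantile normalization (limma adjusted p 0.385) and 0.72 with array spread as a covariate (0.200). The call was also lost with the trended robust prior, Actb, Gapdh and the replicate block.

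Rpl10a forms the flexible L1 stalk, where spent transfer RNA leaves the ribosome. It ran from 5.85 to 8.66 in normal cells with a median of 6.73, was 7.37, 7.87 and 8.17 in H1, and 9.19, 8.56, 8.79 and 9.63 in H2. Only normal replicate 3 reached the lowest H2 array. The difference was 2.00 ± 0.49, or 4.01-fold (limma adjusted p 0.0373), and passed in 5 of 15 such fits.

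Rps27l is a paralog of Rps27 whose gene is a p53 target. It ran from 3.99 to 7.48 in normal cells with a median of 6.13, was 4.18, 6.79 and 7.09 in H1, and 8.59, 8.65, 8.64 and 7.86 in H2. Its H2 arrays all lay above the other groups, and here H2 replicate 7, the top array for most members, was the lowest of the 4. The difference was 2.59 ± 0.68, or 6.00-fold (limma adjusted p 0.0482), and passed in 4 of 15 such fits. Its other probe sets gave differences of 2.00 and 2.19. The paralog Rps27 lay between 4.03 and 4.72 on all 15 arrays and differed by −0.01, with a sign that turned under median centring and quantile normalization, to 0.03 and 0.04. Rps27 has 1 probe set, whose mean of 4.44 lay near the median of 4.38 for all genes, so its flat signal may say little about the gene. The difference between the paralogs was not tested.

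The next member by p was Rps10, a protein of the small-subunit head that is mutated in some Diamond-Blackfan anaemia, with 2.29 ± 0.63 (limma adjusted p 0.0564). It ran from 3.38 to 7.76 in normal cells with a median of 5.87, was 6.82, 6.36 and 6.80 in H1, and 8.92, 8.05, 8.01 and 8.76 in H2. All 4 H2 arrays lay above the rest. Rpl22 differed by 2.18 (limma adjusted p 0.0698), with H2 values of 9.62, 9.61, 9.85 and 10.32 above a highest normal value of 9.38. Rpl13a had H2 values of 12.77, 12.79, 12.67 and 12.92 above normal values that reached 12.60, and Rps28 had 12.76, 11.92, 12.14 and 12.59 above normal values that reached 11.87. Rps20, a small-subunit head protein, was 11.01, 11.15, 11.22 and 11.19 in H2, a narrow range above normal values from 6.40 to 10.68 with a median of 9.39. For Rpl22, Rpl13a and Rps28 the highest normal array lay close below the lowest H2 array.

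**Figure D4:**
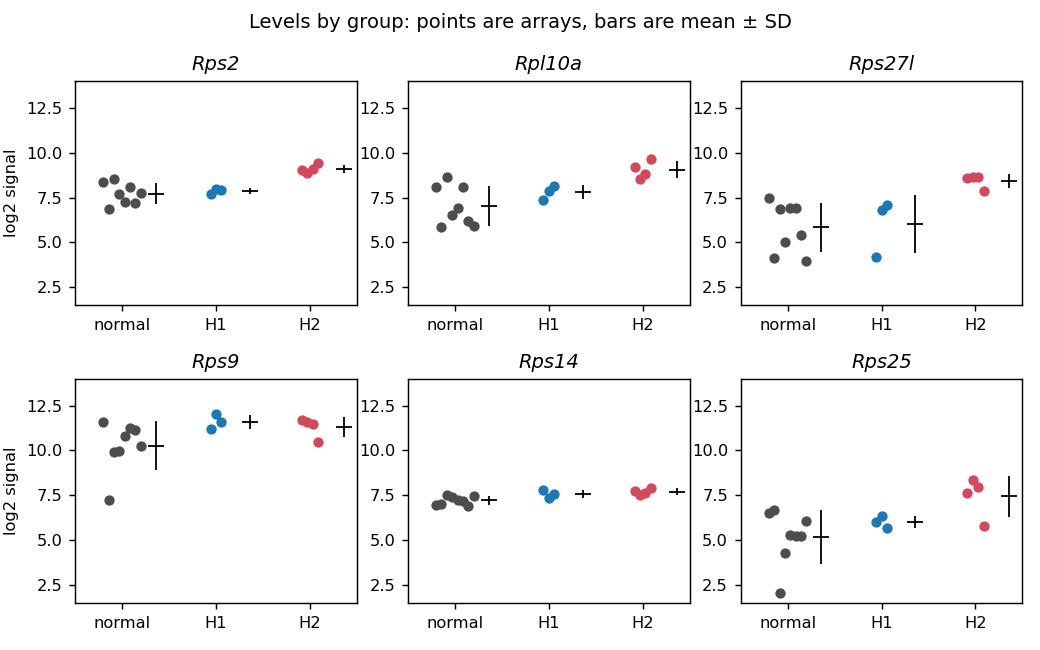
Log2 signal (vertical axis) of Rps2, Rpl10a, Rps27l, Rps9, Rps14 and Rps25 on each array (points) in normal cells, H1 and H2, with the mean ± SD of each group in black. Rps2 and Rps27l are higher on all 4 H2 arrays than on any other array, while Rps14 stays within 1.00 log2 units over all 15 arrays.

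The other well-known members on the fixed list did not pass with all arrays in the fit. Rpsa, also known as the laminin receptor precursor, was 8.90, 7.78, 8.20 and 9.10 in H2 against 5.33 to 8.96 in normal cells with a median of 6.60, a difference of 1.54. The stalk proteins that recruit elongation factors, Rplp0 and Rplp2, differed by 0.83 and 1.86. Rplp2 was 5.74, 4.58, 5.62 and 6.25 in H2, and only normal replicate 3, at 6.37, lay above 4.26 among normal arrays. Rps6, the substrate of S6 kinase, differed by 0.81, and its other probe set by −0.65, so the 2 probe sets disagreed in sign. Its H2 values of 3.52, 6.17, 6.83 and 7.13 spread more widely than its normal values, which ran from 3.95 to 6.39 with a median of 5.11, and H2 replicate 1 was the lowest of all 15 arrays. Rps19, the gene most often mutated in Diamond-Blackfan anaemia, differed by 1.20, Rpl11 by 1.56, with H2 values of 9.40, 9.58, 9.96 and 10.45 against normal values from 5.27 to 10.07, and Rps14 by 0.48, which quantile normalization turned to −0.39. Among paralogs, Rpl3l differed by 0.39 and Rpl39 by 0.84, while Rpl39l, expressed mainly in male germ cells, differed by −0.25. Rpl12, at the base of the stalk, differed by −0.41. With array spread as a covariate the differences of Rplp0, Rps6, Rps19, Rpl11 and Rpl39 turned to −0.51, −0.60, −0.17, −0.29 and −0.02. Rplp1, Rpl5, Rpl3 and Rpl10 had no 1-symbol probe set and were not analysed here.

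The count of 3 called members rested on single arrays. It was 20 without normal replicate 3, 8 without normal replicate 1 and 6 without normal replicate 6, where 6.07%, 4.51% and 3.36% of all genes were called higher. Rpsa and Rplp2 were among the 20. It was 1 without normal replicate 4, 5, 7 or 8, without H1 replicate 3 and without H2 replicate 1 or 5. It was 0 without H2 replicate 6 or 7, where 0.594% and 0.561% of all genes were called higher. In the fits that gave 1 that share lay between 1.56% and 2.32%. The median difference stayed between 1.28 and 1.82 in these fits. With quantile normalization repeated over all probe sets the median difference was 0.82 and no member was called, against 0.890% of all genes higher.

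Array spread was entered as a covariate to measure how much of each difference moved with it. The median difference between H2 and normal cells was then 0.13 in place of 1.55, with 29 members higher and 17 lower, and 1 member was called, where 0.313% of all genes were called higher and 0.539% lower. That member was Rps25, at 3.58 ± 0.70 (limma adjusted p 0.0234). Rps2, Rpl10a and Rps27l were no longer called. The lesion median was 0.27, with 34 higher and 12 lower, and 0 members were called, against 0.220% of all genes higher and 0.253% lower. The H1 median was 0.35, again with 0 members called, against 0.0824% higher and 0.0330% lower. In H1, 8 members then had an unadjusted p under 0.05, all higher, against 4.05% of all genes higher and 4.49% lower. Among them were Rpl22 at 1.00 and Rpl19 at 1.04, with limma adjusted p-values of 0.370 or more. Group and spread overlap in this design, since the H2 arrays were wider on average, so a difference that moves with spread cannot be told apart from one between groups.

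The comparison of the lesion types put H1 below H2 for 41 members and above for 5, with a median difference of −0.94 against −0.06 over all genes. No member was called in limma's test, where 0.00% of all genes were called higher and 0.00550% lower, and 3 members had an unadjusted p under 0.05, all lower in H1, against 4.90% of all genes higher and 7.41% lower. H1 and H2 values did not overlap for 20 members lower in H1 and 1 higher (Rpl12), against 10.1% and 8.10% of all genes. All 20 were among the 30 members above 6, and 669 of the 2366 genes above 6 lay apart in that direction. The median difference was −1.10 for members above 6, against −0.61 for all genes above 6. The lowest p belonged to Rps2, at −1.23 ± 0.35 (limma adjusted p 0.299), Rps27l, at −2.42 ± 0.85 (0.331), and Rps10, at −1.77 ± 0.78 (0.386). Rpl3l stood at −0.66, and H1 was higher for Rpl12 at 0.81, Rps9 at 0.29, Rpl39l at 0.20 and Rps26 at 0.13. With array spread as a covariate the median difference turned to 0.23, with 30 members higher in H1 and 16 lower. The H1 and H2 comparisons with normal cells share the same 8 normal arrays, and their values stand side by side here for that reason without a measure of likeness.

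Probe sets beyond the chosen ones were also mostly higher in H2. Over all 100 member probe sets the median H2 difference was 1.28, with 86 higher and 9 called, all higher, against 2.25% of 35055 probe sets called higher and 0.331% lower. Of the 23 genes with several probe sets, all probe sets were higher in H2 in 14 genes and they disagreed in sign in 9. The 110 probe sets with several symbols, which were not members, had medians of 6.58 ± 1.12 in the normal group, 7.18 ± 0.56 for H1 and 8.39 ± 0.40 for H2.

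Other parts of the translation machinery were read beside the members. A list of translation factors and other genes with TOP messages had differences of a similar size. It also holds the nascent-chain proteins Naca and Btf3, the growth-related protein Tpt1, the nucleolar protein Npm1 and the splicing factor Hnrnpa1. All 14 measured had a higher mean in H2, with a median of 1.48. None was called in limma's test, where 2.89% of all genes were called higher. Before adjustment, 11 were higher with p under 0.05, against 12.7% of all genes. The elongation factor subunits Eef1b2 and Eef1d differed by 2.65 ± 0.72 (limma adjusted p 0.0542) and 2.40 (0.0685). With array spread as a covariate this median was −0.02, with 7 higher and 7 lower. Their median was 0.61 in H1, and all 14 were lower in H1 than in H2.

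Ribosome biogenesis genes, which act in the nucleolus and on maturing subunits, had smaller differences. Of 33 measured, with a median H2 difference of 0.16, 4 rose (12.1%) and 1 fell (3.03%), against 2.89% and 0.495% of all genes. The RNA helicase Ddx21 rose by 1.86 (limma adjusted p 0.0069), the nucleolar GTPase Gnl3, known as nucleostemin, by 0.97 (0.0331), the pre-ribosome factor Tsr1 by 3.12 (0.0337) and the RNA polymerase I and III subunit Polr1c by 2.77 (0.0349). Heatr1, a factor for ribosomal RNA transcription and processing, fell by 0.84 (0.0487). None of the 33 was called with array spread as a covariate (limma; before adjustment, p was under 0.05 for 6 higher and 2 lower), and their median was then 0.01. Of 16 genes of mTORC1 and TOP control, none was called and the median was 0.42, with Rheb, the activator of mTORC1, at 1.47 (0.0631).

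Mitochondrial ribosomal proteins, which build the separate ribosome of that organelle, had a median H2 difference of 0.40. Of the 76, 9 rose (11.8%) and none fell, where 6.52% of the cytosolic members and 2.89% of all genes rose. Mrpl51 rose by 2.73 ± 0.29 (limma adjusted p 0.0004) and Mrpl47 by 1.40. With array spread as a covariate 2 of the 76 were called, both higher, and the median was 0.09. Their mean signal had a median of 4.82, below that of the cytosolic members, and their median difference was 0.27 in all lesions and 0.04 in H1. Of the 4 cytosolic ribosomal proteins outside the naming rule, Rpl22l1, the paralog of Rpl22, rose in H2 by 1.55 ± 0.38 (limma adjusted p 0.0349), and Rps3a1 stood at 1.97 (0.128).

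Cell type markers moved with the groups too. All 7 measured markers of alveolar type 2 cells, the surfactant-making cells of the alveolus, had higher means in H2, with a median of 2.24, and 1 passed, Abca3. Their median was 0.27 with array spread as a covariate, and 0 passed. Their summed log2 signal ran from 33.93 to 67.87 in normal cells, from 54.54 to 64.90 for H1 and from 62.10 to 69.52 for H2. Sums of 8 endothelial markers ran from 32.77 to 50.44, from 33.57 to 37.54 and from 32.99 to 36.90 in the same order. No endothelial marker passed. With array spread as a covariate 4 of the 8 were called lower in H2, as were 2 of 5 markers of alveolar type 1 cells and 0.539% of all genes. Without the covariate 3 of those 5 type 1 markers had higher means in H2, with a median of 0.03, and 0 passed. Of 7 macrophage markers 5 had higher means in H2, as did 3 of 4 lymphocyte markers, and 0 of either list passed. Of 6 fibroblast markers 4 had higher and 2 lower means in H2. Col1a2 passed, at 1.57 (limma adjusted p 0.0341), and its values and those of Col3a1 lay above all normal arrays. With array spread as a covariate 1 of the 6 was called lower and 0 higher. Of 4 club and ciliated cell markers 2 were higher and 2 lower in H2, with a median of 0.09. Cyp2f2 passed, at 1.57 (limma adjusted p 0.0308), and 0 of the 4 were called with array spread as a covariate. The summed log2 signal of these 4 was low. It ran from 11.51 to 13.69 in normal cells and from 13.36 to 16.36 in H2, where replicate 1 was highest. No marker can be at 0 on this scale, and the dimmest in normal cells was Foxj1, a gene of ciliated cells, at 2.35. In tissue pieces such as these, fewer cells of a type and less RNA per cell cannot be told apart. The part of cell makeup in the ribosomal protein differences was not tested.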

How the data were processed

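The authors deposited 1 log2 signal for each probe set of a mouse Affymetrix array, from RNA extracted with the PicoPure kit and amplified with WT-Ovation One-Direct, per the labels' protocols. The submitters' processing notes name affy and RMA, which corrects background, equalises probe intensities by quantiles and summarises probes, with no version. RMA does not equalise the spread of probe set values, which can move bright genes together. Of 45101 probe sets, 34945 carried 1 symbol. RefSeq's table (GRCm38.p6) gave names and start-site sequences. No filter on low values was applied, so all 46 members were tested.

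Groups were compared with limma 3.58.1 (lmFit, eBayes) in R 4.3.3. All lesions were set against normal cells in a fit of 2 groups, and the other comparisons came from 1 fit of 3 groups. P-values were adjusted over all 18193 genes and called under 0.05. The procedure was tested on simulated data with independent noise for each gene and array. That test did not cover differences in array spread, outlying arrays or shared animals. For arrays the number of samples limits precision.

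The text names, in each comparison, the 4 members of lowest p in each direction, the 3 brightest and 3 dimmest, and a fixed list of well-known members and paralogs. Rps25 and others named for not following the group, or for non-overlapping values, were picked once their values were known. The members and all lists were chosen with earlier results of these data known. The alternatives were median centring, a filter on dim genes, quantile normalization repeated over all probe sets, other choices of probe set, a trended robust prior, covariates for array spread and for the 3′ to 5′ signal of Actb and Gapdh, a replicate block, fewer samples, and leaving out each array.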

Additional observations from a re-analysis of the deposited data

Results flagged for a closer look

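In 60 groups of values, a sample was marked where it stood farther from the others of its group than Dixon's 95% limit, which chance reaches in about 1 of 20 groups. Normal replicate 2 was marked for Rps28, at 3.99, for Rps9, at 7.25, and for the middle probe set of 18S ribosomal RNA, at 9.19. Rps28 otherwise ran from 9.50 to 11.87 in normal cells. Normal replicate 1 was marked for Rpl14, at 7.23, and normal replicate 3 for Rps26, a small-subunit protein that contacts the message upstream of the start codon, at 7.03. H2 replicate 7 was marked for Rps27l, at 7.86, and for Rps9, at 10.45, below the other H2 arrays in both. H2 replicate 1 was marked for 18S ribosomal RNA, at 10.61.

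The 110 probe sets that list a ribosomal protein beside other symbols were outside the comparisons. Their median difference between H2 and normal cells was 1.65, and 100 of them were higher in H2.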

How the results depend on the processing

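The median difference kept its sign in 26 of 26 alternatives for lesions against normal cells and in 27 of 27 for H1 and for H2 against normal cells. For H1 against H2 it was negative in 26 of 27. With array spread as a covariate the medians were 0.27 (lesions), 0.35 (H1), 0.13 (H2) and 0.23 (H1 against H2), and the H1 median was 0.13 without the 2 narrowest normal arrays. The count of members called in H2, 3 as reported, was 7 with median centring, with the filter on dim genes and with the mean of probe sets, where 3.62%, 6.57% and 2.26% of all genes were called higher. It was 1 with array spread, without the 2 narrowest normal arrays and with only the arrays compared, and 0 with quantile normalization, the trended robust prior, Actb or Gapdh, and all-gene shares in these fits ran from 0.214% to 2.34%. Leaving out 1 array gave 0 to 20 in H2 and 0 to 1 in all lesions, and medians of 0.81 to 1.31 (lesions), 0.27 to 0.83 (H1), 1.28 to 1.82 (H2) and −1.11 to −0.69 (H1 against H2). With the replicate block the H2 count was 0 and the median 1.29. Same-numbered normal and lesion arrays deviated together with r from −0.14 to 0.38, over 0.1 in 4 of 7 pairs, and 1 of 7 lesions correlated best with its own number. These deviations over all genes cannot show whether same-numbered arrays shared a mouse or section. The numbers were not taken as pairs in the main fits. Signs that turned were mostly those of small differences or came with array spread. Rps14 in H2, at 0.48 ± 0.17 (SE), was an exception and turned with quantile normalization. For lesions they were Rpl12 (0.335 with spread, 0.0786 with Actb, 0.0517 with Gapdh, 0.0197 with the block, 0.0518 without the narrowest arrays) and Rps27 (0.0360 centred, 0.0455 quantile, 0.0058 with the block, 0.0162 without the narrowest arrays). For H2 they were, with spread, Rpl12 (0.13), Rplp0 (−0.51), Rps6 (−0.60), Rps19 (−0.17), Rpl11 (−0.29) and Rpl39 (−0.0155). Rps27 turned to 0.0286 centred, 0.0374 quantile, 0.0709 with the block and 0.0060 without the narrowest arrays, and Rps14 to −0.39 with quantile normalization. Rpl39l turned to 0.0357 in H1 without the narrowest arrays and to −0.0059 in H1 against H2 with spread, and Rps26 to −0.725 there with the block. Leaving out 1 array turned Rpl14 (−0.74 to 0.012), Rpl12 (−0.19 to 0.0434) and Rps27 (−0.0611 to 0.0473) in lesions, Rpl3l (−0.51 to 0.11) and Rps4l (−0.24 to 0.18) in H1, Rps27 (−0.0713 to 0.0569) in H2 and Rps26 (−0.34 to 0.56) in H1 against H2, among others. The causes were not tested. Samples per group and unknown sharing of animals limit all tests, and values near background say little about the dim members.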

Other observations

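Ribosomal RNA and ribosomal protein signals did not follow each other on every array. The middle 18S probe set, one of the array's controls, read 12.44 ± 1.43 (SD) over the 8 normal arrays, 13.02 ± 0.23 over the 3 H1 arrays and 12.63 ± 1.35 over the 4 H2 arrays. Normal replicate 2 was low in both measures. H2 replicate 1 had the lowest 18S signal of the H2 arrays, at 10.61, while its member median was 8.24.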
